A study of Mus musculus with 11 samples.

Results

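Hox genes, which encode homeodomain transcription factors and lie in 4 clusters on different chromosomes, were examined in cultured mesenchymal stem cells (MSCs) from the bones of the mouse hind limb. Members were all protein-coding genes of the count table whose symbol was Hox followed by a cluster letter from a to d and a paralogue number. There were 28 such genes among the 28222 genes of the table, whereas the annotation listed 39. The table held 7 of 11 Hoxa, 10 of 10 Hoxb, 6 of 9 Hoxc and 5 of 9 Hoxd genes.

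Each Hox cluster is an ordered row of genes. Genes with low paralogue numbers are expressed in anterior parts of the embryo, and those with high numbers in posterior and distal parts. In the developing limb, group 9 and 10 genes of the Hoxa and Hoxd clusters act in the upper limb segment, group 11 genes in the middle segment and group 13 genes in the hand or foot, and Hoxc genes with high numbers are used in the hind limb more than in the forelimb. Stromal cells of adult tissues keep part of this pattern in culture, which is why it is called a positional code.

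The 11 libraries came from polyadenylated RNA of MSCs, 6 from young (3 to 5 months) and 5 from old (18 to 22 months) mice, all cultured at 2% oxygen. They fell into batch A (4 young), batch B (2 young, 2 old) and batch C (3 old). Per the methods of the study, wild-type C57BL/6 N mice were used (described there for young mice), the cells grew out of crushed tibias and femurs, and they were sorted as negative for CD45 and TER-119 and positive for CD140a and Sca-1. No gene was deleted and no agent was added in any group according to the labels, which do not say whether libraries of a group came from separate animals. The p-values below therefore measure the spread between these samples, which may be technical in part. Totals ranged from 11969336 to 20315934 counts per library, of which 3083 to 5259 counts fell on Hox genes.

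Batches stood apart from each other. The 12 blood cell markers summed to 715 to 1597 CPM (counts scaled to the library total after adjustment by TMM factors) in batch A young, 404 to 825 CPM in batch B young, 828 to 1179 CPM in batch B old and 143 to 167 CPM in batch C old libraries. The macrophage receptor gene Csf1r, for example, averaged 177 CPM in batch A young and 17.0 CPM in batch C old libraries. The 10 MSC markers were present in every library, at a sum of 3494 to 5623 CPM, whereas the 3 skeletal muscle markers with counts stayed at or under 4.11 CPM in sum, the 5 endothelial markers at or under 9.77 CPM and the 4 erythroid markers at or under 2.69 CPM. Among the defining muscle markers, Myod1 and Pax7 did not exceed 0.0726 CPM, and the erythroid sum was 0 in batch A young libraries. Whether the share of blood cells had a part in any Hox difference was not tested, and in bulk RNA fewer cells of a type and less RNA per cell cannot be told apart.

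Hoxa3, Hoxa4, Hoxa5, Hoxa6, Hoxc6, Hoxc8, Hoxc9, Hoxd1, Hoxd4, Hoxd10 and Hoxd12 are not analysed here. Of these 11 genes, 8 lie wholly inside the span of another gene on the same strand. Hoxc6, Hoxc8 and Hoxc9 lie inside the annotated Hoxc5 gene, Hoxd4 lies inside Hoxd3, and Hoxa3 to Hoxa6 lie inside the read-through gene model Gm28308. Over the whole annotation, counts were present for 10 of 461 protein-coding genes inside a gene of the same strand (2.17%), but for 17369 of 20477 inside no other gene (84.8%). Counts listed for Hoxc5, Hoxd3 and Gm28308 can therefore include reads of the genes inside them and cannot be assigned to a single gene. Only 37.2% of the exon bases of Hoxd3 and 65.0% of those of Hoxa11 belong to no other gene, the latter because of the antisense gene Hoxa11os, and whether strand was used in counting is not given in the sources used here.

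The first question was which clusters and paralogues these cells expressed. Of the 28 genes, 14 were at or above 1 CPM in every library, and 7 of these were at or above 5 CPM in every library, namely Hoxa10, Hoxc10, Hoxc5, Hoxd8, Hoxa11, Hoxc13 and Hoxa9. By cluster, the 14 genes were 6 of 7 Hoxa, 5 of 6 Hoxc, 2 of 5 Hoxd and 1 of 10 Hoxb genes. Hoxa genes lie on the − strand of chromosome 6, Hoxb genes on the + strand of chromosome 11, Hoxc genes on the + strand of chromosome 15 and Hoxd genes on the + strand of chromosome 2 (GRCm38). By position, the genes at or above 1 CPM in every library were 9 of 13 genes of paralogue groups 9 to 13, 4 of 9 genes of groups 4 to 8 and 1 of 6 genes of groups 1 to 3. These denominators, by cluster and by position, leave out the 11 genes without counts named above. Only Hoxb was complete, so the comparison of clusters and positions rests on an incomplete set. Hoxd13, Hoxb5, Hoxb2, Hoxb13 and Hoxb1 stayed under 1 CPM in all 11 libraries. Hoxb1, an anterior gene known from the hindbrain, had a single count in 1 library, and Hoxb13, the most posterior Hoxb gene, had 2 counts in 1 library, both below the 3 counts (0.156 to 0.253 CPM) taken as the smallest detectable level.

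Levels were compared between genes as CPM per kb of the longest annotated transcript, which is termed the per-length level. Hoxa10 had the highest mean per-length level, at 27.6 ± 3.92 (SD, n = 11), followed by Hoxc10 at 23.0 ± 4.12. Both belong to paralogue group 10, which patterns the upper segment of the limb and the lumbar region of the spine. Either Hoxa10 or Hoxc10 ranked first in each of the 11 libraries, and neither fell below rank 2. These genes, the members of group 10 with counts here, together carried 46.2 ± 2.10% of the summed per-length Hox level (SD, n = 11), with a range from 43.0 to 49.1%. The sum leaves out the Hox genes without counts, Hoxd10 among them. These ranks and shares hold for the longest transcript. All annotated exons of Hoxa10 together cover 3270 bases, compared with 2565 bases for its longest transcript, whereas both lengths were 1909 bases for Hoxc10. The order of Hoxa10 and Hoxc10 thus depended on the length used.

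**Figure D1:**
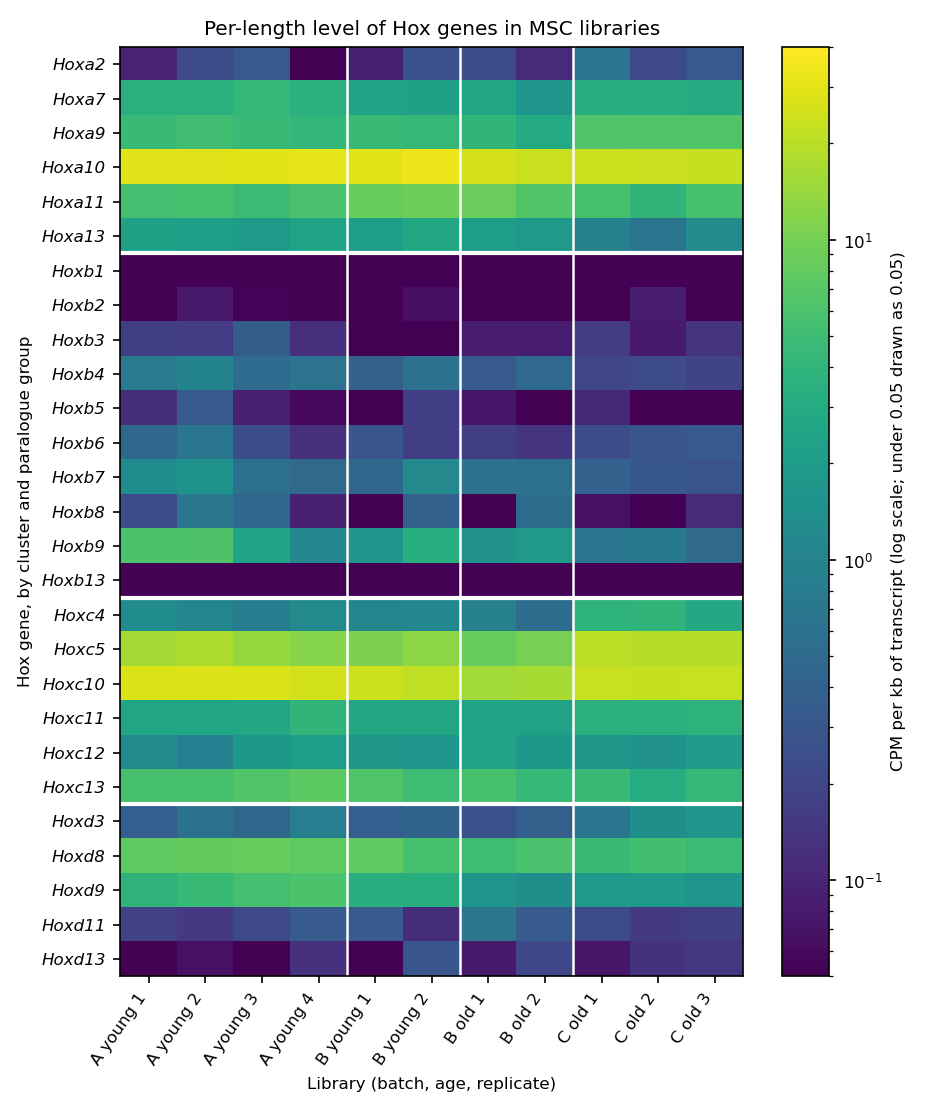
Per-length level (CPM per kb, colour on a log scale) of the Hox genes (rows, by cluster and paralogue group, 1 gene not drawn) in the 11 libraries (columns). Hoxa10 and Hoxc10 were the brightest rows in every library, whereas 4 Hoxb genes and Hoxd13 stayed under 1 CPM throughout.

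The homeobox, the 180 bases that encode the DNA-binding homeodomain, is shown for the Hoxa10 and Hoxc10 pair because these genes dominated the pattern. It was read from the GENCODE M21 transcripts on the coding strand, at bases 1029 to 1208 of the Hoxa10 and bases 864 to 1043 of the Hoxc10 transcript. Capitals mark the 35 positions at which the pair differed.
Hoxa10: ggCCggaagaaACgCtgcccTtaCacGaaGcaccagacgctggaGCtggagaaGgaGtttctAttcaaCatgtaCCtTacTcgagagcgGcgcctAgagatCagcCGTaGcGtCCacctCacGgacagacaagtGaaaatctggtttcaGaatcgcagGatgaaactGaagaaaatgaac
Hoxc10: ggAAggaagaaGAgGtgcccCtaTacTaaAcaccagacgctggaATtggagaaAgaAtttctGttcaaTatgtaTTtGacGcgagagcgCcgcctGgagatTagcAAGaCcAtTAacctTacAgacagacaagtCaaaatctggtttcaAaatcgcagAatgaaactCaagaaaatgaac
The pair was identical at 145 of 180 bases (80.6%). A homeobox was found in all 28 members, and identity had a median of 80.6% over the 20 pairs of the same paralogue group and of 60.0% over the other 358 pairs. Between the longest transcripts of each pair of members, the longest shared run was 47 bases, in Hoxa7 with Hoxb4 and in Hoxb3 with Hoxd3.

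Hoxa10 lies at chr6:52231197-52240854 and Hoxc10 at chr15:102966796-102971893, where it shares exon bases with Hoxc5 (91.3% of its exon bases belong to no other gene). Hoxa10 was at 74.2, 75.7, 78.7 and 80.4 CPM in batch A young, at 77.96 and 86.6 CPM in batch B young, at 66.2 and 60.8 CPM in the old libraries of batch B and at 62.0, 59.8 and 56.7 CPM in batch C old libraries. All old libraries thus lay below all young libraries on this scale, and its highest level was 1.53-fold its lowest. Scaled by total counts alone, Hoxa10 was at 65.3 to 71.97 CPM in batch C old and at 66.0 to 74.5 CPM in batch A young libraries, which overlapped. Hoxc10 was at 52.1, 53.5, 52.6 and 48.1 CPM in batch A young, at 45.4 and 39.8 CPM in batch B young, at 30.0 and 31.6 CPM in the old libraries of batch B and at 44.0, 42.1 and 44.0 CPM in batch C old libraries. Its lowest values were those of batch B old, and batch C old overlapped with batch B young on this scale, but lay above it with total counts (48.5 to 51.1 against 39.4 to 43.0 CPM). Counts listed for Hoxc5 ranked 3 or 4 by per-length level in every library, at 25.0 to 37.6 CPM in batch B, 35.0 to 50.9 CPM in batch A and 56.8 to 60.1 CPM in batch C.

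Among the other posterior genes, the group 11 gene Hoxa11, needed for the lower leg and forearm, averaged 12.5 ± 0.97 CPM in batch A young (SD, n = 4), 20.05 ± 1.01 in batch B young (n = 2), 17.4 ± 3.38 in batch B old (n = 2) and 11.6 ± 2.25 in batch C (n = 3). Hoxc13, known from hair and nail, lay between 7.79 and 18.2 CPM, and Hoxa13, needed for the foot, between 1.57 and 6.47 CPM. Hoxc11 lay between 4.74 and 7.96 CPM over all libraries. Hoxc12 (0.93 to 2.49 CPM) and Hoxd11 (0.41 to 2.36 CPM) were low, and Hoxd13, needed for digits, did not exceed 0.75 CPM. Counts of Hoxd13 ranged from 0 to 11 per library, so that differences between libraries were not detectable at this depth.

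Of the central genes, Hoxd8 was at 12.1 to 22.1 CPM, Hoxa9 at 9.49 to 20.8 CPM, Hoxd9 at 3.01 to 12.8 CPM and Hoxa7 at 3.41 to 8.75 CPM. The more anterior Hoxc4 was at 1.202 to 8.45 CPM and Hoxd3 at 0.81 to 4.79 CPM.

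The Hoxb cluster stood out by its low level and by its spread within batch A. Hoxb9 was at 15.5, 15.9, 6.44 and 2.84 CPM in batch A young libraries 1 to 4, at 4.22 and 8.51 CPM in batch B young, at 3.77 and 4.74 CPM in the old libraries of batch B and at 1.77, 1.90 and 1.31 CPM in batch C old libraries. The highest library exceeded the lowest by 12.2-fold, compared with 1.53-fold for Hoxa10, and the batch A libraries alone spanned nearly the whole range. The coefficient of variation within batch A was 64.3% for Hoxb9, but 3.64% for Hoxa10, 4.61% for Hoxc10 and 4.80% for Hoxd8. Hoxb7 showed a similar split, at 1.66 and 1.94 CPM in batch A young libraries 1 and 2 and at 0.74 and 0.65 CPM in libraries 3 and 4. Hoxd9 was lower in the libraries in which Hoxb9 was higher, at 8.20, 9.80, 11.98 and 12.8 CPM in the same order.

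Expressed as shares of the summed per-length level, Hoxc carried 45.1 ± 5.11%, Hoxa 41.3 ± 4.21%, Hoxd 9.69 ± 1.80% and Hoxb 3.87 ± 2.33% (SD, n = 11). The sum covers only genes with counts here, which are all genes of Hoxb but not all of the other clusters. The order of Hoxa and Hoxc depended on the group. Hoxc was ahead in batch A young (44.2 ± 0.45% against 38.9 ± 1.70% for Hoxa, n = 4) and in batch C old (52.5 ± 0.36% against 38.0 ± 0.76%, n = 3), whereas Hoxa was ahead in batch B young (45.8 ± 1.77% against 40.4 ± 2.15%, n = 2) and batch B old libraries (46.6 ± 3.25% against 40.6 ± 1.72%, n = 2). Within batch A the Hoxb share was 7.47 and 8.39% in libraries 1 and 2, but 4.0 and 2.29% in libraries 3 and 4, and it was 1.54 to 1.76% in batch C. The share of Hoxc includes counts listed for Hoxc5, which alone made up 13.4 ± 3.72% of the sum. Without division by length, Hoxa (43.7%) exceeded Hoxc (42.3%), so that the order of both clusters also depended on the length used.

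**Figure D2:**
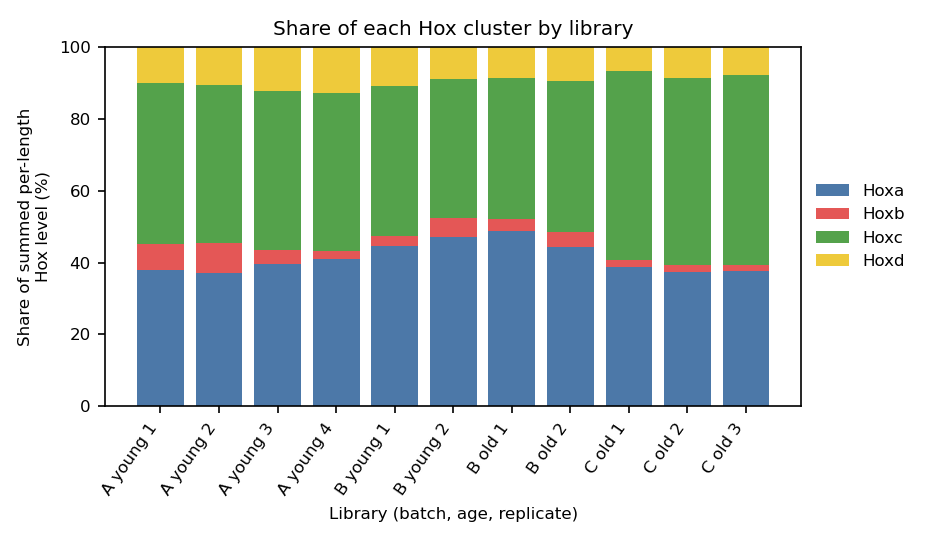
Share of each Hox cluster in the summed per-length Hox level (percent, stacked bars) in the 11 libraries. Hoxa and Hoxc together made up most of the sum in every library, the Hoxc share was 52.1 to 52.8% in batch C, and the Hoxb share was 2.29 to 8.39% in batch A.

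The second question was how stable the order of levels was between libraries. Over the 14 genes at or above 1 CPM in every library, Spearman's rho between libraries of the same group had a median of 0.93 (11 pairs, 0.82 to 1.00). These correlations are across genes, which share library, depth and length and are not independent replicates. Between batch B young and batch B old libraries rho was 0.91 to 0.96 (4 pairs), and between batch A and batch B young libraries it was 0.85 to 0.96 (8 pairs). Between batch C old libraries and those of batch A young it was 0.63 to 0.86 (12 pairs), and with those of batch B old 0.70 to 0.90 (6 pairs). The lowest values were thus those with batch C. Within batch B, rho was 0.96 between the young and 0.95 between the old libraries, so that values between ages reached from below these to the same level.

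Distances gave a similar picture and were set beside those of all 16132 tested genes. As the root mean square of log2 CPM differences, the distance over the 14 genes had a median of 0.36 within groups and of 0.82 between groups, compared with 0.49 and 0.93 over all tested genes. These sets are not matched in level. The 14 genes were chosen at or above 1 CPM in every library, whereas the tested genes only passed a filter on low counts. A smaller distance over the 14 genes therefore does not show that Hox genes were more stable. It was 0.39 to 0.57 between batch B young and old libraries (all tested genes, 0.54 to 0.59), each pair farther apart than the replicates of batch B (0.34 for young and 0.34 for old), and 0.77 to 1.05 between batch B old and batch C old libraries (all tested genes, 1.00 to 1.10). Within batch A it ranged from 0.12 to 0.72, compared with 0.46 to 0.52 over all tested genes. Pairs of batch A libraries thus lay both below and above the range of all genes.

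Age was then compared with batch in the model, so that only batch B, with 2 libraries of each age, set the age difference, while all 11 libraries contributed to the spread. A gene was called at a Benjamini-Hochberg adjusted p under 0.05 over all genes tested. Of 25 Hox genes that passed the filter on low counts, 2 were called (8.0%), compared with 2.23% of all 16132 genes tested. Both were lower in old MSCs, a direction in which 1.54% of all genes were called. The median log2 fold change (old over young) was −0.27 over the 25 Hox genes and 0.00 over all genes, and 20 of the 25 genes had a negative value, most of them without a call. In the same comparison the 10 MSC markers had a median of −0.27, with 2 called lower, and the 12 blood cell markers had a median of 0.63, with 0 called by edgeR or limma-trend, 1 by DESeq2 and 5 at an unadjusted p under 0.05. Their part in the Hox values was not tested.

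Hoxd9, a gene of the upper limb segment (chr2:74697727-74700208), was at 7.30 and 7.22 CPM in the young and at 3.57 and 3.01 CPM in the old libraries of batch B. The groups did not overlap. The log2 fold change was −1.14 and an SE of 0.24 (edgeR adjusted p 0.018). Hoxc10 had a log2 fold change of −0.47 and an SE of 0.11 (edgeR adjusted p 0.0327), and both of its old libraries in batch B lay below both young ones. Hoxa10 had a value of −0.37 (SE 0.10, edgeR adjusted p 0.0766) and was not called.

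Both age calls were lost when single libraries were left out. For a batch B library this leaves 1 library against 2 to set the age difference, which weakens the test for every gene. The share of all genes called in these fits is not given here. The lost calls therefore do not show that a single library made either difference. The log2 fold change of Hoxc10 stayed between −0.56 and −0.37 when any library was left out. Hoxd9 was no longer called without batch B young replicate 1 (edgeR adjusted p 0.0759), without batch B old replicate 1 (0.104) or without batch B old replicate 2 (0.123), although its log2 fold change stayed between −1.26 and −1.02 when any library was left out. Hoxc10 was lost in the same 3 cases (adjusted p 0.141, 0.289 and 0.113) and also without any of the 3 batch C libraries (0.0602 to 0.0663). When any of these 3 batch B libraries was left out, 0 of the Hox genes were called by edgeR (5 or 6 at an unadjusted p under 0.05), and without batch B young replicate 2 there were 3, with Hoxd8 added. In batch B alone, 0 Hox genes were called by edgeR, with 3 at an unadjusted p under 0.05. Over all 11 libraries, limma-trend called 2 Hox genes and DESeq2 called 3, with Hoxa10 added.

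The promoter of Hoxd9 is shown as the 200 bases upstream of its RefSeq start site on GRCm38.p6 (chr2:74697563-74697762, + strand), since this gene had the largest age difference among the called members.
Hoxd9: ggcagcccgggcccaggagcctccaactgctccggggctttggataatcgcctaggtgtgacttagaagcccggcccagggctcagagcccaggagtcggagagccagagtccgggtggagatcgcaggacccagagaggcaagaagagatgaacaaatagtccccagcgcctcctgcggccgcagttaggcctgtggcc
It held 10 CpG dinucleotides, compared with a median of 5 over all 32851 RefSeq windows of the same length. No match was found on either strand to the TATA box, searched as TATAAA. The same held for the CCAAT box, searched by that name, for a composite PBX-HOX site, searched as TGATTNAT, and for a CDX site, searched as TTTATGG.

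Within young MSCs, batch B and batch A were compared next, to ask whether libraries of the same age carried the same levels. Of 24 Hox genes tested, 2 were called (8.33%), compared with 18.1% of all 14840 genes tested. Hoxa11 was higher in batch B (19.3 and 20.8 CPM) than in batch A (12.6, 12.9, 11.1 and 13.4 CPM), with a log2 fold change of 0.70 and an SE of 0.15 (edgeR adjusted p 0.00852). The groups did not overlap. Hoxa7, a thoracic-level gene, was lower in batch B (4.74 and 4.63 CPM, against 7.09 to 8.75 CPM in batch A), with a log2 fold change of −0.67 and an SE of 0.20 (edgeR adjusted p 0.0373). Without batch B young replicate 2 neither gene was called (adjusted p 0.0695 and 0.170), and with the replicate number as a block both lost the call (0.152 and 0.370) and Hoxb9 was called instead. Hoxa7 was in addition not called without batch A young replicate 2 (0.0621), 3 (0.114) or 4 (0.0722) or without batch B young replicate 1 (0.0764).

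Within old MSCs, 11 of 23 Hox genes (47.8%) were called between batch C and batch B, compared with 64.7% of all 15651 genes tested. Of these, 7 were higher in batch C (30.4%, against 32.1% of all genes) and 4 were lower (17.4%, against 32.6%). The share of Hox genes called was thus below the background. Blood cell markers differed in the same comparison, with 12 of 12 lower in batch C and a median log2 fold change of −2.63. Their part in the Hox differences was not tested.

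The higher genes belonged to paralogue groups 3 to 11. Hoxc4 (chr15:103018934-103036852) was at 7.89, 8.45 and 5.95 CPM in batch C and at 1.95 and 1.202 CPM in old batch B, with a log2 fold change of 2.23 and an SE of 0.26 (edgeR adjusted p 1.28e-05). Hoxd3 was at 2.06, 4.12 and 4.79 CPM against 0.81 and 1.14 CPM, with a log2 fold change of 1.88 and an SE of 0.40 (edgeR adjusted p 0.00149). In both genes all batch C libraries lay above all batch B old libraries, and for Hoxd3 the reads cannot be separated from those of Hoxd4. Counts listed for Hoxc5 rose by 1.08 (SE 0.09) on the log2 scale, Hoxa9 by 0.89 (SE 0.13), Hoxc11 by 0.59 (SE 0.16), Hoxa7 by 0.58 (SE 0.20) and Hoxc10 by 0.49 (SE 0.07), with edgeR adjusted p from 5.34e-07 to 0.0251.

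Hoxa9, an upper-segment gene also used in blood progenitors, was at 20.7, 20.7 and 20.8 CPM in batch C and at 12.9 and 9.49 CPM in old batch B. The 3 batch C values had a coefficient of variation of 0.15%. This is smaller than the counting error of their 352, 316 and 286 counts and does not show a stable level. Blood cell markers were lowest in the same 3 libraries.

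The 4 lower genes belonged to paralogue groups 9, 11 and 13. Hoxd11 was at 0.77, 0.52 and 0.58 CPM in batch C and at 2.36 and 1.14 CPM in old batch B (log2 fold change −1.47, SE 0.42, edgeR adjusted p 0.00856). Hoxb9 fell by 1.35 log2 units and an SE of 0.25 (edgeR adjusted p 0.000508). Hoxa13 was at 2.24, 1.57 and 2.97 CPM against 5.05 and 4.41 CPM (−1.08, SE 0.26, edgeR adjusted p 0.00297), and Hoxa11 was at 12.95, 9.04 and 12.9 CPM against 19.7 and 15.0 CPM (−0.58, SE 0.17, edgeR adjusted p 0.00924). Batch C lay below batch B old in all libraries for each of these genes. Without batch B old replicate 1, Hoxd11 (adjusted p 0.158) and Hoxa11 (0.0684) were not called, and Hoxa7 lost its call without batch B old replicate 2, batch C old replicate 1 or batch C old replicate 2 (adjusted p at most 0.23).

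Outside the Hoxb cluster, 6 of 11 tested genes of paralogue groups 1 to 10 were called higher in batch C than in batch B old and 0 were called lower, whereas 1 of 7 genes of groups 11 to 13 was called higher (Hoxc11) and 3 were called lower, beside 32.1% of all genes called higher and 32.6% called lower. Of the 5 tested Hoxb genes, which all belong to groups 3 to 9, 0 were called higher and 1 was called lower (Hoxb9). The median log2 fold changes were 0.58, −0.38 and −0.82 in these 3 sets, compared with 0.02 over all genes tested. Over the 23 genes, Spearman's rho between the log2 fold change and the paralogue number was −0.50, and for age with batch in the model it was 0.14 over 25 genes. The same rho was −0.23 between batch C old and batch A young (23 genes) and 0.39 between young batches (24 genes). Against batch A young, groups 1 to 10 outside Hoxb had 4 of 11 genes called higher in batch C and 4 lower. Groups 11 to 13 outside Hoxb had 0 of 6 higher and 2 lower, beside 32.0% and 31.9% of all genes. These are descriptions across genes of the same libraries, and the split by position was chosen with earlier results known.

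**Figure D3:**
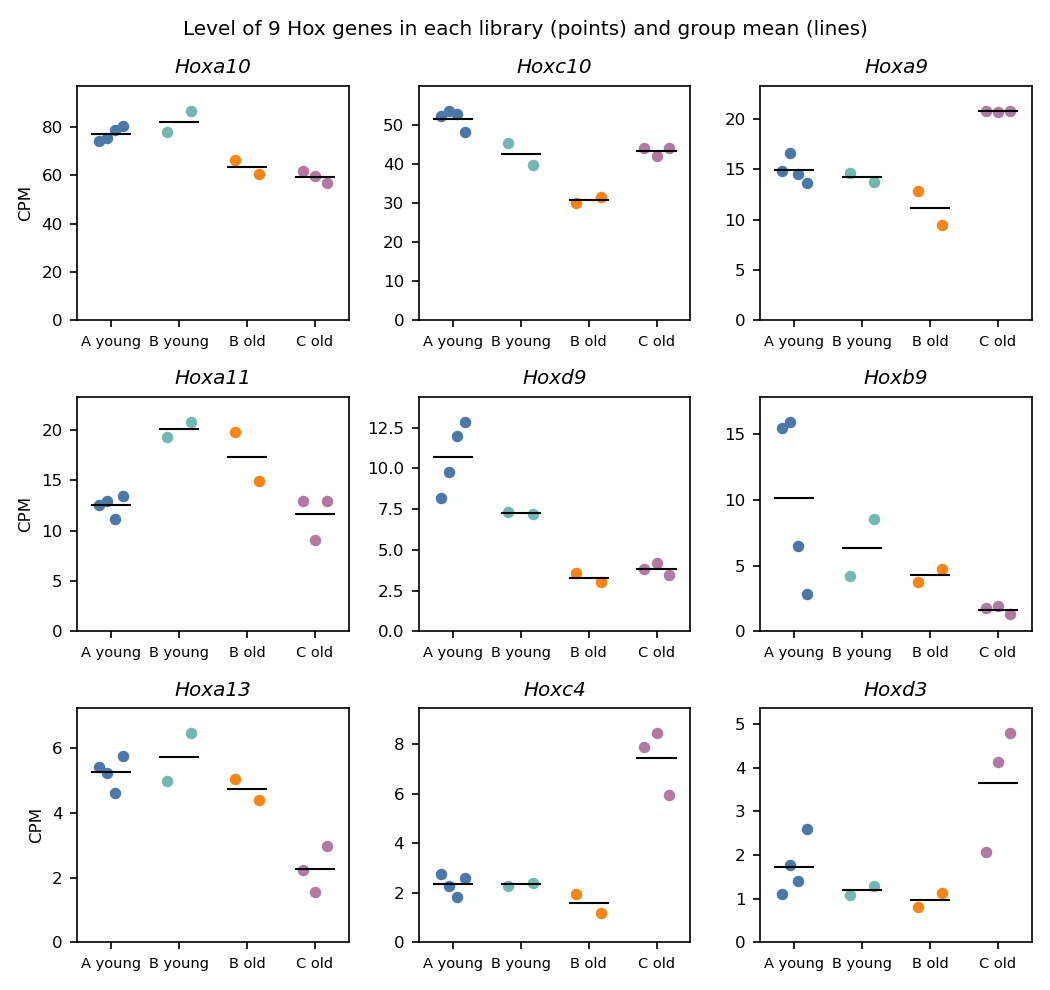
Level (CPM, axis from 0) of 9 Hox genes in each of the 11 libraries (points) with the mean of each group (lines). Hoxc4, Hoxd3 and Hoxa9 were highest in batch C, Hoxa13 and Hoxb9 were lowest there, Hoxd9 was lower in the old libraries of batch B than in the young ones, and Hoxb9 spread from 2.84 to 15.9 CPM within batch A.

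Batch C old and batch A young libraries share no library with batch B, and in this comparison age and batch cannot be told apart. Of 23 Hox genes tested, 14 were called (60.9%), compared with 63.8% of all 15021 genes. Only 4 were higher in batch C old (17.4%, against 32.0% of all genes), and 10 were lower (43.5%, against 31.9%). Scaling by total counts shifted the all-gene median by 0.29 log2 units here and by 0.19 between old batches, and the split of the Hox calls in the comparison with batch A then became 6 higher and 7 lower. The shares of all genes above came from TMM factors and are no background for this split. The all-gene median here was 0.31 under scaling by total counts. Hoxc10, called lower at −0.19 (SE 0.07, edgeR adjusted p 0.0269), had a positive value of 0.10 under that scaling, and Hoxa10 and Hoxc13 were no longer called.

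The 4 higher genes were Hoxc4 (log2 fold change 1.69, SE 0.19, edgeR adjusted p 8.79e-06), Hoxd3 (1.16, SE 0.34, edgeR adjusted p 0.00877), Hoxa9 (0.54, SE 0.09, edgeR adjusted p 0.00029) and the counts listed for Hoxc5 (0.47, SE 0.11, edgeR adjusted p 0.00187). These comparisons with batch A and with batch B share the batch C libraries, and their values are only set side by side. Hoxd3 was not called without batch C old replicate 3 (adjusted p 0.0559). Hoxc4 and Hoxa9 in batch C lay above each of the 8 other libraries.

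Among the lower genes, Hoxd9 fell by 1.41 log2 units and an SE of 0.18 (edgeR adjusted p 2.54e-05), from 8.20 to 12.8 CPM in batch A to 3.48 to 4.19 CPM in batch C. Hoxb9 fell by 2.56 (SE 0.51, edgeR adjusted p 0.000729), Hoxb4, at 1.321 to 2.62 CPM in batch A and 0.51 to 0.59 CPM in batch C, by 1.71 (SE 0.34, edgeR adjusted p 0.00067) and Hoxb7 by 1.47 (SE 0.46, edgeR adjusted p 0.0133). Hoxb8 was called lower as well (edgeR adjusted p 0.0125), at 3 to 22 counts in batch A and 2 to 4 counts in batch C libraries, so that its size could not be measured. Of the 6 tested Hoxb genes, 4 were thus called lower and 0 higher. Hoxa13 (−1.17, SE 0.22), Hoxd8 (−0.64, SE 0.10), Hoxc13 (−0.59, SE 0.15) and Hoxa10 (−0.32, SE 0.07) completed the list, with edgeR adjusted p from 0.0001 to 0.00393. Without batch C old replicate 2 or 3, Hoxc10 was not called (adjusted p at most 0.0948).

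The promoters of Hoxc4, Hoxd3 and Hoxa13 are shown because these genes differed in batch C from both other batches, upward for Hoxc4 and Hoxd3 and downward for Hoxa13. Each is the 200 bases upstream of the RefSeq start site on GRCm38.p6, at chr15:103034195-103034394 (+ strand), chr2:74711793-74711992 (+ strand) and chr6:52260881-52261080 (− strand). Capitals mark matches to CCAAT on either strand.
Hoxc4: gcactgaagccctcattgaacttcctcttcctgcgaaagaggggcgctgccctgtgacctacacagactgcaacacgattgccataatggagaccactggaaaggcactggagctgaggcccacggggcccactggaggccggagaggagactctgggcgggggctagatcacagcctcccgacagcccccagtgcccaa
Hoxd3: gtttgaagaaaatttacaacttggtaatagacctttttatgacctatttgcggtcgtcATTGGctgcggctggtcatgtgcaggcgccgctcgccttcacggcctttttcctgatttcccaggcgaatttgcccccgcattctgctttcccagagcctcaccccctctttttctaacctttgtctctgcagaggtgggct
Hoxa13: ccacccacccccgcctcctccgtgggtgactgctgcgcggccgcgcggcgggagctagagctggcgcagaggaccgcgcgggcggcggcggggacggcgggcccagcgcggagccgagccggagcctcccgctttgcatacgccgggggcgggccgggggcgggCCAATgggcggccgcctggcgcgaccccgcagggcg
The windows of Hoxd3 and Hoxa13 each held a CCAAT match, 142 and 36 bases before the start, as did 29.3% of all RefSeq windows. The Hoxa13 window was the richest in CpG dinucleotides among members, with 33, while those of Hoxc4 and Hoxd3 held 7 and 9. RefSeq entries were matched for 15 of the 28 members (17 windows), of which 7 windows held CCAAT, 3 held TATAAA (9.96% of all windows), 2 held TGATTNAT (2.23%) and 0 held TTTATGG (1.89%). The RefSeq start of Hoxc4 lies 15461 bases from the start of the annotated gene used for counting.

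**Figure D4:**
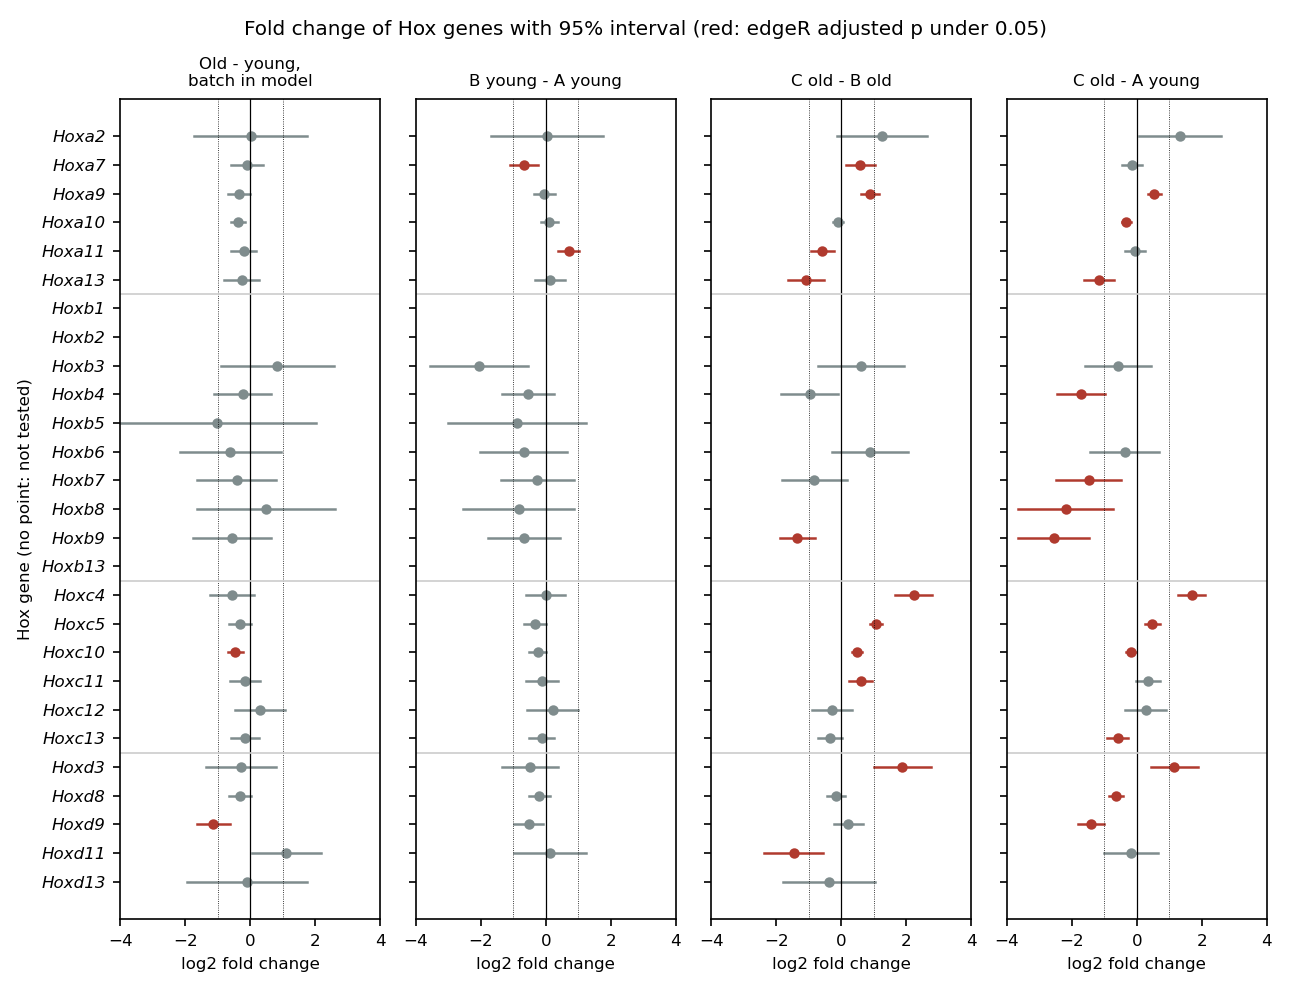
Log2 fold change (points) with 95% interval (lines, cut at −4 and 4) of the Hox genes (1 not drawn) in the 4 comparisons, with red for an edgeR adjusted p under 0.05 and dotted lines at −1 and 1. Called genes number 2 for age, 2 between young batches, 11 between old batches and 14 between batch C old and batch A young, and most Hoxb intervals are wide.

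A missing call does not show stability, and intervals were therefore examined as well. The whole 95% interval of the log2 fold change lay between −1 and 1 for 11 of 25 Hox genes for age (44.0%, against 67.5% of all genes), for 11 of 24 between young batches (45.8%, against 67.7%), for 9 of 23 between old batches (39.1%, against 53.5%) and for 11 of 23 between batch C old and batch A young (47.8%, against 60.0%). Hox genes and all tested genes are not matched in level here, and genes with few counts have wide intervals. The lower shares therefore do not show that Hox genes were less stable. For age the 11 genes included Hoxa7, Hoxa9, Hoxa10, Hoxa11, Hoxa13, Hoxc10, Hoxc11, Hoxc13 and Hoxd8. None of the 7 tested Hoxb genes was among them. For Hoxb9, which had 56 to 125 counts in batch B libraries, the interval reached from −1.76 to 0.64. For these 11 genes a 2-fold change with age in either direction lay outside the interval, and for each tested Hoxb gene at least 1 direction lay inside it. Without batch C old replicate 1, the number between old batches was 5.

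Genes known to act with or on Hox genes were read from lists. The limb identity genes Pitx1 and Tbx4, which mark the hind limb, were at 23.2 to 71.4 CPM and at 8.89 to 18.8 CPM, whereas Tbx5, which marks the forelimb, was at 0.74 to 2.81 CPM in batches A and B and at 4.47 to 6.94 CPM in batch C. Isl1, the remaining gene of this list, was low, at 0.20 to 1.24 CPM over all libraries. Tbx5 was higher in batch C than in batch B old libraries by 2.72 log2 units and an SE of 0.30 (edgeR adjusted p 8.92e-06) and than in batch A by 1.92 (SE 0.31, edgeR adjusted p 0.000132). Pitx1 was lower in old than in young MSCs with batch in the model (−1.13, SE 0.23, edgeR adjusted p 0.0143), at 59.7 and 50.04 CPM in young and 27.0 and 23.2 CPM in old batch B libraries. As for Hoxd9, this call was lost without batch B young replicate 1, batch B old replicate 1 or batch B old replicate 2 (adjusted p at most 0.103).

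The 9 TALE homeobox genes, whose proteins bind DNA together with Hox proteins, all passed the filter. For age, 0 were called by edgeR, limma-trend or DESeq2, with 1 at an unadjusted p under 0.05. Between old batches 6 were higher in batch C and 0 lower. Of all genes, edgeR called 2.23% for age and, between old batches, 32.1% higher and 32.6% lower in batch C. Of 18 tested chromatin regulators of the clusters, 0 were called for age by edgeR, limma-trend or DESeq2 (1 at an unadjusted p under 0.05), and 9 were higher and 3 lower in batch C than in batch B old libraries. The trithorax gene Kmt2a, which maintains Hox transcription, averaged 99.9 CPM in batch C, 27.6 CPM in batch B old, 31.0 CPM in batch B young and 55.9 CPM in batch A libraries. Between old batches its log2 fold change was 1.85. The other genes called higher there included Cbx7 (2.38), Phc3 (0.85), Cbx2 (0.62) and Ezh2 (0.51). The 3 lower genes were Rnf2 (−0.51), Phc2 (−0.40) and Bmi1 (−0.31). Whether any of these genes had a part in the Hox levels was not tested.

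Among other genes within the clusters, Gm28308, whose span holds Hoxa3 to Hoxa6, was at 12.6, 11.6 and 11.7 CPM in batch C and at 2.11 to 4.13 CPM in the 8 other libraries (batch C over batch B old, log2 fold change 1.64, SE 0.15, edgeR adjusted p 1.62e-06). Hoxa11os, antisense to Hoxa11, was lower in batch C than in batch B old (4.97 against 8.15 CPM, −0.72, SE 0.18, edgeR adjusted p 0.00387), the same direction as Hoxa11. These genes share exon bases, and with the counting strand not given their counts may not be independent. Between young batches they differed, with Hoxa11 at 12.5 CPM in batch A and 20.05 CPM in batch B and Hoxa11os at 8.04 and 7.59 CPM. Of 12 tested non-member genes within the clusters, 4 were higher and 4 lower in batch C than in batch B old, and 0 of 13 were called for age by edgeR, limma-trend or DESeq2 (2 at an unadjusted p under 0.05). Of the protein-coding genes that flank the clusters, 4 of 8 passed the filter, with 1 higher and 3 lower between old batches. Over all genes, edgeR called 32.1% higher and 32.6% lower in batch C than in batch B old, and 2.23% for age.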

How the data were processed

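Gene counts for 11 libraries were deposited by the authors as whole-number, unnormalised read counts per Ensembl gene. According to the methods of the study, reads were processed with zUMIs, STAR and featureCounts on mm10 (GRCm38). Of 28222 genes, 28143 matched GENCODE M21. Libraries were grouped by age and batch from the labels. Differences were tested in R 4.3.3 with edgeR 4.0.16 (quasi-likelihood test, filterByExpr minimum count of 5, TMM factors, Benjamini-Hochberg adjustment over all genes tested, two-sided). CPM used TMM-scaled totals. Alternatives were limma-trend (limma 3.58.1), DESeq2 1.42.0, other scalings and filters, thinning, a replicate block, a length and GC correction and leaving out each library. The scripts were tested on simulated data.

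All Hox genes were accounted for in counts, and the values of 1 member are not reported here. Values by library or group were given for the 12 with the highest mean per-length level and for each called gene, the rest by range and count, and genes that are no members were named only from lists. Members and lists were chosen with earlier results of these data known. Totals of 11969336 to 20315934 counts put 3 counts, the floor used, at 0.156 to 0.253 CPM, which covers counting error only. Promoters came from RefSeq (GRCm38.p6).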

Additional observations from a re-analysis of the deposited data

Results flagged for a closer look

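In batch A young, the group with 4 libraries, 26 Hox genes were examined for a library far from the others, and 2 stood out. Chance alone flags about 1 in 20 groups. Hoxa7 was at 8.75 CPM in library 3, compared with 7.09 to 7.26 CPM in the other libraries, a gap of 0.897 of the whole range and above Dixon's critical value. Hoxc11 was at 7.96 CPM in library 4, compared with 5.24 to 5.53 CPM, a gap of 0.891 of the range. Without library 3 the difference of Hoxa7 between young batches was not called (edgeR adjusted p 0.114).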

How the results depend on the processing

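The 2 Hox genes called for age became 1 with total counts, 1 after thinning to the smallest total, 5 with no batch term, 0 in batch B alone and 0 to 3 when a library was left out. The 2 genes called between young batches became 1 with total counts, 1 after thinning, 4 with no filter and 0 to 3 when a library was left out. The 11 and 14 genes called in the comparisons with batch C became 10 to 11 and 12 to 15 when a library was left out. These are counts of Hox genes alone, and a setting can change the calls of all genes. The shares of all genes called by setting are not given here. The counts therefore describe the processing and are no result about Hox genes as against other genes. The 9 genes with the interval within 1 of 0 between old batches became 5 to 9. Of the 14 genes at or above 1 CPM, 7 remained at 5 CPM. The Hoxa share of 41.3% was 36.7% with the union of exons and 43.7% without length, and the Hoxc share of 45.1% was 49.0% and 42.3%. The median rho between groups of 0.85 was 0.94 over all Hox genes in the table. Hoxc10 reversed to 0.10 between batch C old and batch A young with total counts. Except where the construction shows it, the cause was not tested. Over 1572 alternatives of single genes, 1504 stayed on the same side of the threshold, 38 lost the call, 29 gained one and 1 reversed. The 1504 include 66 uncalled values that changed sign.

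With the replicate number as a block, 1 Hox gene was called for age (Hoxd9, while Hoxc10 was lost) and 1 between young batches (Hoxb9, while Hoxa11 and Hoxa7 were lost). Numbers were not taken to pair libraries, since same-numbered libraries of batch B correlated at only 0.04 in their deviations. As a hint from the data, not the design, 4 of 6 batch A and C libraries correlated best with their own number. The same-numbered correlations of these batches were, however, only 0.04, 0.04 and 0.0015. Batch A young gave 0.14 and 0.13 with batch B old, and −0.11 and −0.08 with batch B young. Genes under the floor limit what depth can show.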
